A study of Mus musculus with 3 samples.

Results

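The immunity-related GTPases (IRGs) described here are Irgm1, Irgm2, Igtp, Iigp1, Tgtp1 and Tgtp2, taken by gene symbol: 6 genes of the 55536 annotated in the deposited tables. RNA bound to chromatin, which is rich in nascent and nuclear transcripts, was sequenced from C57BL/6J mouse bone-marrow-derived macrophages, primary phagocytes grown out of bone marrow. All 3 libraries belong to 1 group: cells given Lipid A, the TLR4-activating part of bacterial lipopolysaccharide, at 100 ng per ml for 12 h, kept without it for 12 h, and collected at minute 0 of a second stimulation. No genetic change is named and there is no untreated group, so the values describe 1 state and say nothing of a response. The labels number the libraries as biological replicates 1 to 3, give 1 donor identifier for all of them and do not say that the cultures came from separate animals; the spread between libraries may therefore be partly technical. The labels list age and sex as not collected.

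IRG proteins are interferon-induced GTPases that protect single cells against microbes living in vacuoles, such as Toxoplasma gondii. The regulatory members Irgm1, Irgm2 and Igtp (the last also called Irgm3) sit on the cell's own membranes and keep the effector members inactive there. The effectors Iigp1 (Irga6), Tgtp1 and Tgtp2 (both Irgb6) load onto the vacuole around the microbe and break its membrane. The 2 classes are told apart by 1 residue of the first nucleotide-binding motif, where effectors have lysine and regulators have methionine.

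That residue is the feature by which the results below are ordered, so the codons around it are shown. They are 24 bases of coding sequence from the GENCODE M21 transcripts, with the codon of the deciding residue in capitals, methionine in the first line and lysine in the second.
Irgm1, Irgm2 and Igtp: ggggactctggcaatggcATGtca
Tgtp1 and Tgtp2: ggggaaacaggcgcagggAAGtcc
The stretch covers bases 247 to 270 of the coding sequence in Irgm1 and Irgm2, 271 to 294 in Igtp, and 187 to 210 in Tgtp1 and Tgtp2. It is letter for letter the same in the 3 regulatory genes, and in the 2 Tgtp genes. Iigp1 also has a lysine codon there. Coding sequences were 63.3% to 67.4% identical between regulatory genes, 58.2% and 58.4% between Iigp1 and the Tgtp genes, and 50.5% to 51.9% between a regulatory and an effector gene. Tgtp1 and Tgtp2 were 99.7% identical, with the same base at 1241 of 1245 positions.

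The DNA just before the gene starts is shown next because these genes are known targets of interferon, whose signals reach DNA through gamma-activated sites and interferon-stimulated response elements. RefSeq promoters on GRCm38.p6 were matched for 5 of the 6 genes, and the 250 bases before each start were searched on both strands for TTCNNNGAA and for GAAANNGAAA. Capitals mark the matches.
Irgm1, chr11:48871421-48871465, minus strand: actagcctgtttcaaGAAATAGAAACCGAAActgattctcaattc
Irgm2, chr11:58214887-58214937, plus strand: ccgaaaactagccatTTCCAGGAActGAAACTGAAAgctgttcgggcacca
Igtp, chr11:58199496-58199546, plus strand: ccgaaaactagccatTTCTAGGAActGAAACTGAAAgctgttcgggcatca
Tgtp1, chr11:48992299-48992349, minus strand: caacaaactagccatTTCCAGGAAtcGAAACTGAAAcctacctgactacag
Tgtp2, chr11:49064258-49064308, minus strand: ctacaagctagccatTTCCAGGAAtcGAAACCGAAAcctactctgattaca
GAAANNGAAA was found in all 5 promoters and in 2.98% of the 32851 promoters in the table. TTCNNNGAA was found in 4 of the 5, all but Irgm1, against 7.02% of the table. In those 4 the matches lay 2 bases apart in the same order, and this joint pattern, put together after the sequences were seen, occurred in 5 promoters of the table (0.0152%). The fifth is that of Gm12185, a Tgtp-like gene next to Tgtp1. In Irgm1, 2 overlapping GAAANNGAAA matches ended 15 bases before the start; the Irgm1 stretch also lies in an exon of the non-coding transcript Irgm1-203, and the other stretches overlap no exon of the 6 genes. Over the whole 250 bases, Irgm2 and Igtp were 68.1% identical and Tgtp1 and Tgtp2 61.5%, while all other pairs were between 40.9% and 50%. A match is a run of letters and not evidence of binding, which was not measured.

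On mm10 (GENCODE M21), 5 of the genes lie on chromosome 11. Irgm1 (ENSMUSG00000046879.7) spans chr11:48861968-48871683, Tgtp1 (ENSMUSG00000078922.9) chr11:48985327-48994172 and Tgtp2 (ENSMUSG00000078921.3) chr11:49057194-49064206, all on the minus strand. Igtp (ENSMUSG00000078853.8) spans chr11:58199556-58207591 and Irgm2 (ENSMUSG00000069874.7) chr11:58199618-58222782, both on the plus strand. The annotated span of Irgm2 covers nearly all of Igtp because Irgm2-201 starts in the first exon of Igtp. Iigp1 (ENSMUSG00000054072.12) lies at chr18:60376027-60392634 on the plus strand. Olfr56 runs across both Tgtp genes on the opposite strand, and whether counting used strand is unknown here, so reads of Olfr56 within Tgtp exons could not be told apart.

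The libraries held 11958978, 17283529 and 19475027 expected counts in replicates 1, 2 and 3, from 1000, 250 and 500 ng of starting RNA. TPM, the deposited length-corrected level scaled to a fixed sum per library, allows genes to be compared. Macrophage markers were present in every library: all 10 reached at least 1 TPM in each, and their summed level was 854 to 1101 TPM. Replicate 3 stood apart in its fibroblast and stromal markers, 11 genes whose sum was 596 TPM there and 1.30 and 2.57 TPM in replicates 1 and 2; Col1a1 was at 149 TPM in replicate 3 and 0.01 and 0.43 TPM in the others. In the gene tables, T and NK cell markers summed to 7.05 to 10.4 TPM, nearly all of it Cd4 (8.79 ± 1.69 TPM, SD, n = 3). Cd3e, Cd3g and Zap70 were listed at 0 there in every library. Neutrophil and B cell markers summed to at most 1.21 TPM in the gene tables. In the read-based tables, a second quantification described below, mean levels were 11.4 TPM for Cd3d, 1.01 TPM for Cd3g and 0.13 TPM for Cd3e. In bulk RNA, fewer cells of a type and less RNA per cell cannot be told apart.

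All 6 genes were transcribed in every library, and the effector Iigp1 had the highest level in each. It made up 56.1 ± 5.55% (SD, n = 3) of the summed TPM of the 6 genes. The 3 regulatory genes together made up 25.1 ± 4.95%, and Tgtp2 17.6 ± 1.64%. In the read-based tables, a separate quantification from the reads and an index, Iigp1 made up 44.3 ± 4.52% and Tgtp2 36.4 ± 2.31%. By mean level, 2 of the 6 genes (Iigp1 and Tgtp2) reached 100 TPM, a level met by 2.57% of the 22028 annotated protein-coding genes, and 5 of the 6 (all but Tgtp1) reached 10 TPM, met by 27.2%. Without replicate 1, only Iigp1 stayed at or above 100 TPM, since Tgtp2 then had a mean of 94.7 TPM.

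**Figure D1:**
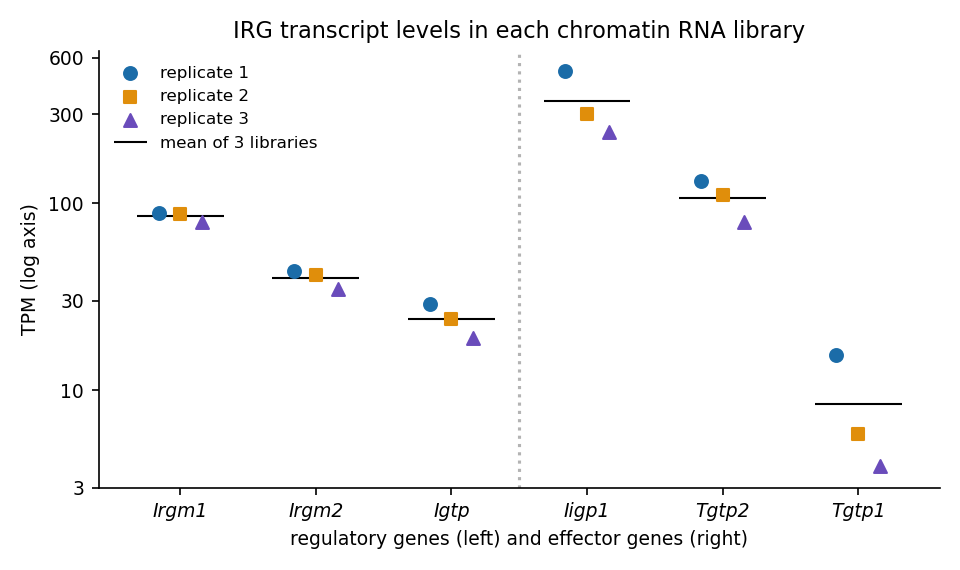
TPM (log axis) of the 6 IRG genes, regulators on the left and effectors on the right; each point is 1 of the 3 libraries and each black line their mean. Iigp1 is highest in every library (242 to 514 TPM), Tgtp1 lowest (3.95 to 15.4 TPM), and replicate 1 is the top point for every gene.

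Among the regulators, Irgm1, which is needed for resistance to mycobacteria and other intracellular bacteria, was at 88.8, 87.3 and 79.6 TPM in replicates 1, 2 and 3. Its mean of 85.2 ± 4.91 TPM (SD, n = 3) ranked 718 among protein-coding genes. In this measure the 3 values lay close together, and their coefficient of variation of 5.76% was the smallest of the 6 genes. The spread was wider in the read-based tables, at 79.0 ± 12.1 TPM (93.0, 71.2 and 72.8 TPM in replicates 1, 2 and 3).

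Irgm2, which restrains effector loading on the Golgi and other inner membranes, was at 43.2, 41.3 and 34.6 TPM, with a mean of 39.7 ± 4.50 TPM. Igtp, a regulator of the endoplasmic reticulum and lipid droplets, was at 28.9, 24.1 and 19.0 TPM, with a mean of 24.0 ± 4.99 TPM. In each library the order was Irgm1, Irgm2, Igtp. Irgm1 exceeded Irgm2 by 1.11 ± 0.08 on the log2 scale, or 2.15-fold, and Irgm2 exceeded Igtp by 0.74 ± 0.15, or 1.67-fold. Both differences kept their sign in 3 of 3 libraries and were larger than their spread; the exact two-sided sign-flip test gave p = 0.25 for each, the smallest p that 3 libraries allow. In the read-based tables Irgm1 exceeded Irgm2 by 1.36 ± 0.09, or 2.56-fold. Irgm2 exceeded Igtp there by only 0.34 ± 0.10, or 1.27-fold (exact sign-flip p = 0.25 for both). Irgm2 and Igtp overlap and share sequence. However, 83.6% of the 31-base words of Igtp-201 and 90.1% of those of Irgm2-202 occur in no other gene. The deposited posterior SD of their counts was at most 1.64 reads.

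Among the effectors, Iigp1 was at 514, 302 and 242 TPM in replicates 1, 2 and 3. Its protein is held inactive at the endoplasmic reticulum in resting cells and moves to the vacuole on infection. The mean of 353 ± 143 TPM placed it at rank 75 of 22028 protein-coding genes. Replicate 1 stood well above the others, and the gap between replicates 2 and 3 was small beside it.

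Tgtp2 was at 132, 110 and 79.1 TPM, with a mean of 107 ± 26.7 TPM. Iigp1 exceeded Tgtp2 in 3 of 3 libraries, by 1.68 ± 0.26 on the log2 scale, or 3.19-fold (exact two-sided sign-flip p = 0.25). In the read-based tables the difference was 0.54, 0.08 and 0.22 in replicates 1, 2 and 3, or 1.21-fold in the mean, only slightly larger than its SD of 0.23 (exact sign-flip p = 0.25). Tgtp2 and Irgm1, its neighbour in the order, were not separated in the gene tables: the log2 difference was 0.57, 0.34 and -0.01 in replicates 1, 2 and 3, and its mean of 0.30 was close to its SD of 0.29 (exact sign-flip p = 0.50). In the read-based tables Tgtp2 was higher in 3 of 3 libraries, by 1.85 ± 0.26, or 3.61-fold (exact sign-flip p = 0.25).

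Tgtp1 was at 15.4, 5.81 and 3.95 TPM, with a mean of 8.40 ± 6.17 TPM, or 4.88 TPM without replicate 1. Igtp, next above it, was higher in every library, by 1.74 ± 0.73 on the log2 scale, or 3.34-fold (exact sign-flip p = 0.25). In the read-based tables this was 0.62 ± 0.44, or 1.53-fold, and only 0.11 in replicate 1 (exact sign-flip p = 0.25). Tgtp1 had the largest relative spread of the 6 genes, a coefficient of variation of 73.5%.

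TPM in these libraries is shared with abundant short nuclear RNAs. It was also rescaled to sum over long RNA genes of the nuclear genome (protein-coding and long non-coding). The means were then 199 ± 27.7 TPM for Irgm1, 93.0 ± 17.1 for Irgm2 and 56.5 ± 16.6 for Igtp. Those of the effectors were 842 ± 429 TPM for Iigp1, 20.5 ± 17.1 for Tgtp1 and 252 ± 82.5 for Tgtp2. On this scale 3 genes instead of 2 reached 100 TPM. The share of all genes at that level was not counted on this scale, and the 2.57% given above does not apply to it. The order of the genes was the same.

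Tgtp1 and Tgtp2 are near-copies, so their split depends on few bases. Of the 31-base words of Tgtp1-201, 5.80% occur in no other gene, and of those of Tgtp2-201, 5.29%. Expected counts for Tgtp1 were 475, 192 and 175 in replicates 1, 2 and 3, with a deposited posterior SD of 25.5, 17.3 and 16.5 reads, and those for Tgtp2 were 3760, 3340 and 3199. Tgtp1 thus held 11.2% of the pair's counts in replicate 1 (95% Wilson interval 10.3% to 12.2%), 5.45% in replicate 2 (4.74% to 6.23%) and 5.19% in replicate 3 (4.49% to 5.99%). Replicate 1 lay outside the intervals of the other 2, which overlapped each other. The intervals cover counting error only, not the error of assigning shared reads. The read-based tables gave 11.6%, 6.48% and 6.15%, the same order. Summed over both genes, which does not depend on the split between them, the level in the gene tables was 148, 116 and 83.0 TPM (116 ± 32.3 TPM, n = 3). This sum still depends on the quantification: in the read-based tables Tgtp2 alone was at 401, 255 and 221 TPM in replicates 1, 2 and 3.

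**Figure D2:**
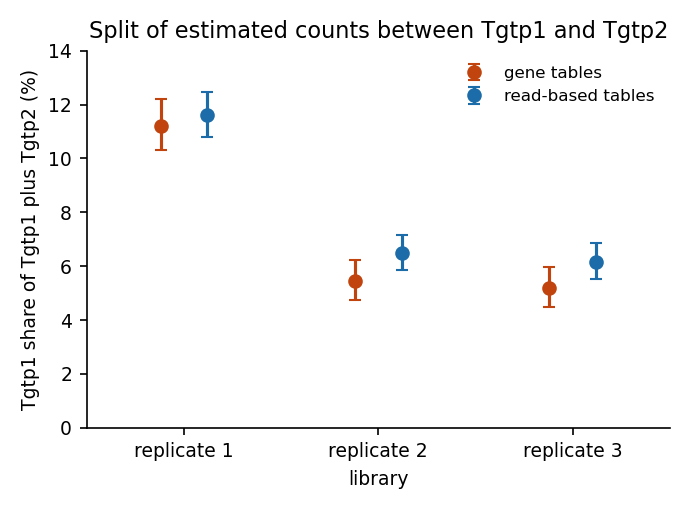
Tgtp1 share of the estimated counts of Tgtp1 plus Tgtp2 (%) in each library, from the gene tables and from the read-based tables; bars are 95% Wilson intervals of the counts. Replicate 1 is at 11.2% and 11.6%, and replicates 2 and 3 are between 5.19% and 6.48%.

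The transcript tables split each gene over its annotated isoforms. Igtp was simple: Igtp-201 held 99.1 ± 1.1% of its estimated counts in the read-based tables and 98.7 ± 1.5% in the alignment-based tables. Irgm2 used 2 isoforms whose last exon begins at the same base. Irgm2-202 held 67.2 ± 3.8% and Irgm2-203, which adds a small middle exon, held 32.8 ± 3.8% in the read-based tables. In the alignment-based tables they held 85.5 ± 2.7% and 12.0 ± 2.7%. Irgm2-201, the form that would start in Igtp, held 0 estimated counts in all 3 libraries there, and 0, 0.5 and 147 in replicates 1, 2 and 3 of the alignment-based tables.

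For Irgm1 the 2 quantifications ranked the coding isoforms in opposite order. Irgm1-201, which has 3 exons, held 56.2 ± 2.3% of counts in the read-based tables and 23.2 ± 2.2% in the alignment-based ones. Irgm1-202, which skips the middle exon, held 24.6 ± 2.5% and 58.6 ± 4.7%. The non-coding Irgm1-203 held 19.2 ± 3.9% and 18.3 ± 4.9%, so the share outside coding isoforms differed little between the tables while the coding split changed. The last exon of Irgm1-203 begins just past the annotated end of the coding isoforms. In chromatin RNA, reads of transcripts that run past that end cannot be told apart from reads of this exon.

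Iigp1 showed the same kind of split on a larger scale. Iigp1-201, with 3 exons, held 39.0 ± 1.9% in the read-based tables and 3.4 ± 0.1% in the alignment-based ones, and Iigp1-202, with 2 exons and a last exon that begins at the same base, held 21.5 ± 2.7% and 54.2 ± 2.7%. The non-coding transcripts Iigp1-203 and Iigp1-205 held 21.6 ± 0.9% and 17.9 ± 1.4% in the read-based tables, and 19.1 ± 2.1% and 20.6 ± 1.2% in the alignment-based ones. Both begin at the first exon of the coding isoforms, and their other exons lie inside the first intron of those isoforms. In chromatin RNA, reads of the unspliced first intron that fall in these exons cannot be told apart from reads of the short transcripts. Together the 2 forms held 42.0%, 39.1% and 37.6% of Iigp1 counts in replicates 1, 2 and 3, a mean of 39.5 ± 2.23%. That is near the middle for chromatin RNA here: over 10197 protein-coding genes with both kinds of transcript and a mean of at least 50 reads, the median share outside coding transcripts was 38.5%. The corresponding read-based shares were 19.2 ± 3.95% for Irgm1 and 17.5 ± 0.83% for Tgtp2, both below that median.

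For the Tgtp genes, the assignment of reads to isoforms changed the estimated level of the gene. Tgtp2-201, the coding form, held 82.5 ± 0.8% of Tgtp2 counts in the read-based tables and 99.4 ± 0.2% in the alignment-based ones. The rest was assigned to Tgtp2-202, a non-coding form of 370 bases that ends inside the intron of Tgtp2-201. In chromatin RNA, reads of that intron before splicing cannot be told apart from reads of the Tgtp2-202 exon within it. Because it is short, Tgtp2-202 alone had 220 ± 68.0 TPM in the read-based tables, against 72.7 ± 28.0 TPM for Tgtp2-201. This put the read-based level of the whole gene at 292 ± 96.0 TPM, compared with 107 ± 26.7 TPM in the gene tables. For Tgtp1 the read-based level was 17.6 ± 10.7 TPM, with 78.0 ± 7.0% of counts on Tgtp1-201 and 17.5 ± 5.9% on Tgtp1-203, a short form with an upstream first exon. In the alignment-based tables Tgtp1-201 held 99.3 ± 1.2% and Tgtp1-203 0.69 ± 1.2%. Iigp1 differed little at the gene level, with 370 ± 184 TPM in the read-based tables. Irgm1, Irgm2 and Igtp had 79.0, 31.1 and 24.8 TPM there.

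**Figure D3:**
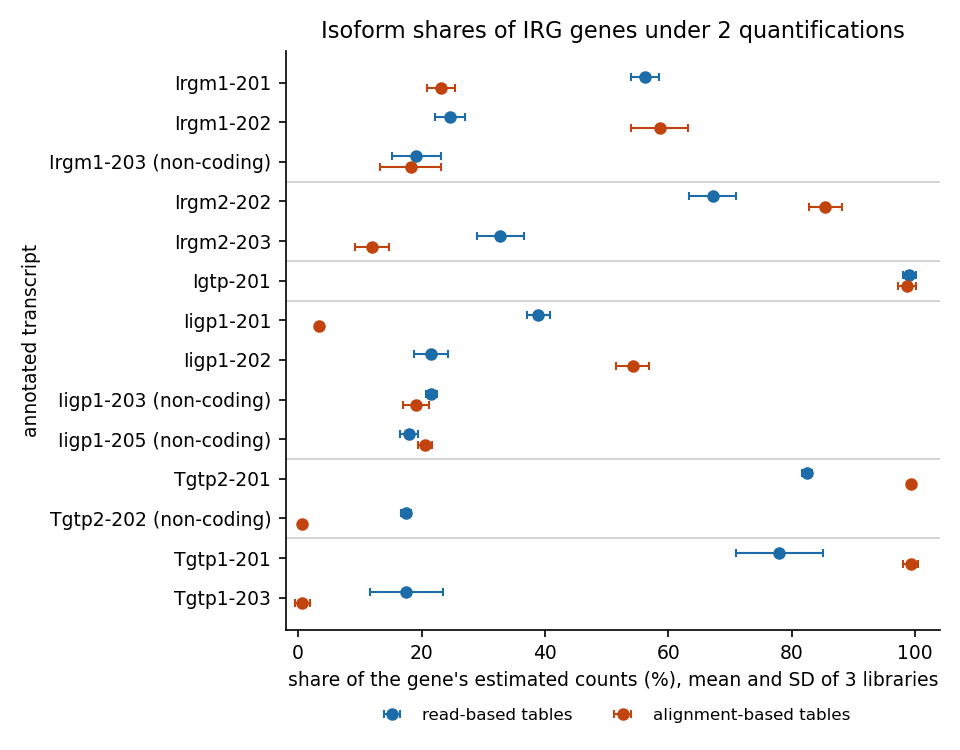
Share of each gene's estimated counts (%) held by each isoform with at least 5% in either table, as mean and SD of 3 libraries, in the read-based and alignment-based tables. The coding isoforms of Irgm1 and Iigp1 change order between the tables, while the non-coding Irgm1-203, Iigp1-203 and Iigp1-205 stay between 17.9% and 21.6%.

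The genes around the IRGs in the same defence were also active, with 2 nearly silent interferon genes. The genes of other lists named here are the 3 highest and the lowest of each. Of 10 further IRG family genes, 6 reached 10 TPM and 2 reached 100 TPM: 9930111J21Rik2 (137 ± 22.4 TPM) and 9930111J21Rik1 (136 ± 25.1 TPM), both on chromosome 11. Gm4951, an Iigp1-like gene on chromosome 18, was at 71.5 ± 6.65 TPM. The lowest was Irgc1, a testis gene, at 0.37 ± 0.46 TPM. The list's median of 41.8 TPM was below the median of 62.5 TPM of the 6 genes.

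Guanylate-binding proteins, larger interferon-induced GTPases that attack the same vacuoles, had 9 of 11 genes at 10 TPM or more and a median of 50.04 TPM. Gbp6, Gbp8 and Gbp9, close relatives in 1 cluster on chromosome 5 that can share reads, were at 132 ± 21.5, 113 ± 32.7 and 106 ± 13.8 TPM. The lowest was Gbp2b, at 0.67 ± 0.56 TPM. Iigp1 was above each of the 11.

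Interferon receptors and their signalling genes, which drive IRG transcription, had 11 of 13 genes at 10 TPM or more. The transcription factor Stat2 was at 723 ± 108 TPM, above Iigp1. Irf1, another transcription factor, was at 141 ± 11.6 TPM, and the kinase Tyk2 at 107 ± 12.8 TPM. The lowest gene was Ifng, the ligand, listed at 0 in all 3 libraries, which allows up to 3 reads in each. The next lowest, Ifnb1, named after its values were seen, had 13, 1 and 2 expected counts in replicates 1, 2 and 3. With so few reads, Ifnb1 did not pass the filter on low counts, and its order between libraries was not tested.

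The vacuole-targeting list holds ubiquitin-like conjugation proteins, adaptors and ubiquitin ligases linked to defence at vacuoles. Of its 13 genes, 9 reached 10 TPM, with a median of 22.1 TPM. Sqstm1, the adaptor p62, was at 140 ± 34.7 TPM, Atg16l1, part of the LC3-conjugating complex, at 85.0 ± 9.37 TPM, and Trim21, a ubiquitin ligase, at 76.1 ± 6.85 TPM. The lowest was Map1lc3a at 1.69 ± 1.36 TPM.

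**Figure D4:**
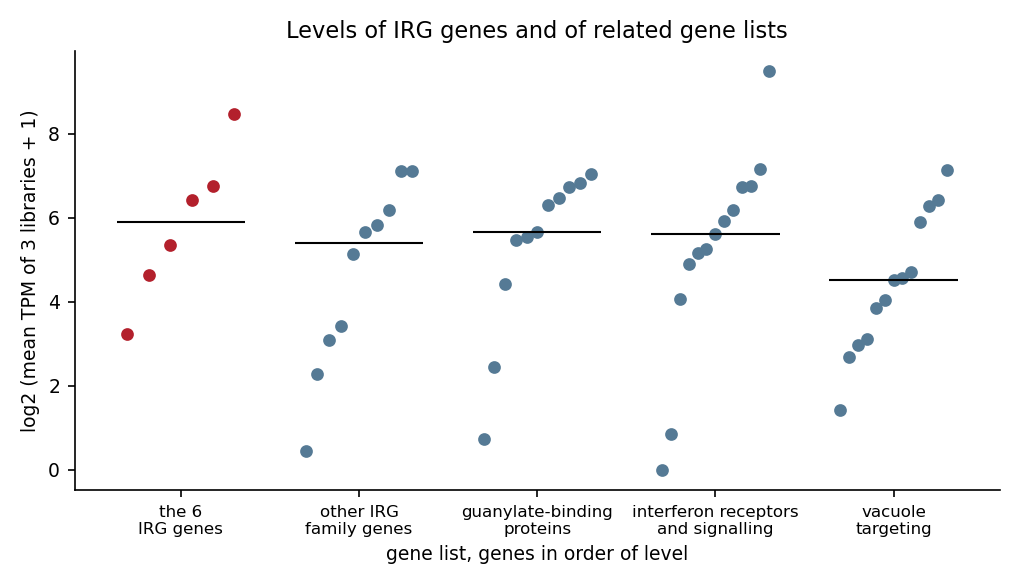
Mean level over 3 libraries, as log2(TPM + 1), of each gene in the 5 lists, sorted within a list; black lines are list medians. The highest IRG point is Iigp1 (353 TPM) and the point above it elsewhere is Stat2 (723 TPM).

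In the gene tables all 6 genes were highest in replicate 1, then replicate 2, then replicate 3. This held by TPM and by CPM, a library-size-scaled count (TMM-normalized). In the read-based tables Irgm1 was at 93.0, 71.2 and 72.8 TPM, with replicate 3 above replicate 2, and the others kept the order. By CPM, 35.0% of the 14839 genes tested were highest in replicate 1. The share of all genes with the full order was not counted. All 6 were higher in replicate 1 than in replicate 2, as were 49.2% of genes tested, and higher in replicate 1 than in replicate 3, as were 48.9%. The median log2 ratio of the 6 genes was 0.55 for replicate 1 over replicate 2 and 0.90 for replicate 1 over replicate 3, against -0.01 for all genes tested in both cases. Each is 1 library against 1 library and has no replicate check, and both ratios share replicate 1.

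The ratios differed from gene to gene. Replicate 1 over replicate 2 was 3.35 for Tgtp1, 1.99 for Iigp1 and 1.53 for Tgtp2, and 1.40 for Igtp, 1.21 for Irgm2 and 1.15 for Irgm1. Replicate 1 over replicate 3 kept this order, from 4.49 for Tgtp1 and 2.38 for Iigp1 down to 1.32 for Irgm1. For the Tgtp pair summed, the ratios were 1.63 and 2.09. Replicate 2 over replicate 3 was 1.34 for Tgtp1, 1.28 for Tgtp2, 1.26 for Igtp, 1.20 for Iigp1, 1.19 for Irgm2 and 1.14 for Irgm1. Effectors were thus above regulators in both ratios that use replicate 1 and not in the one without it, and a difference between the classes was not tested.

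The test for spread asked whether a gene varied between the 3 libraries more than genes of its level do, with edgeR's quasi-likelihood fit and Benjamini-Hochberg adjustment over 14839 genes. None of the 6 genes passed an adjusted p of 0.05, and 0.162% of all genes did. The unadjusted p was 0.00060 for Tgtp1, 0.010 for Iigp1, 0.021 for Tgtp2 and 0.048 for Igtp, and 0.16 for Irgm2 and 0.30 for Irgm1. The smallest edgeR adjusted p was 0.12, for Tgtp1; across alternatives it ran from 4.0e-05 to 1.00, and Tgtp1 passed without replicate 3 (4.0e-05) and with no filter on low counts (0.0032).

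Replicate 1 was also the library with the fewest counts and the most starting RNA, and replicate 3 the one with stromal markers (596 TPM summed, against 1.30 and 2.57 TPM in replicates 1 and 2). The part of these in the differences was not tested.

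Related lists moved between libraries to different degrees. All 10 guanylate-binding protein genes that passed the filter on low counts were highest in replicate 1, with median log2 ratios of 0.76 over replicate 2 and 0.62 over replicate 3. The same held for 7 of 9 further IRG family genes (0.30 and 0.54), 5 of 11 interferon receptor and signalling genes (-0.05 and 0.24) and 4 of 12 vacuole-targeting genes (-0.04 and -0.07). Among macrophage markers 4 of 10 were highest in replicate 1 (-0.01 and 0.12), near the 35.0% of all genes tested. No gene of these lists passed the spread test with edgeR's adjusted p. At an unadjusted p under 0.05 in that test there were 8 guanylate-binding protein genes and 2 further IRG family genes. There were also 1 interferon signalling gene, 2 vacuole-targeting genes and 1 macrophage marker, and 862 of all 14839 genes.

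**Figure D5:**
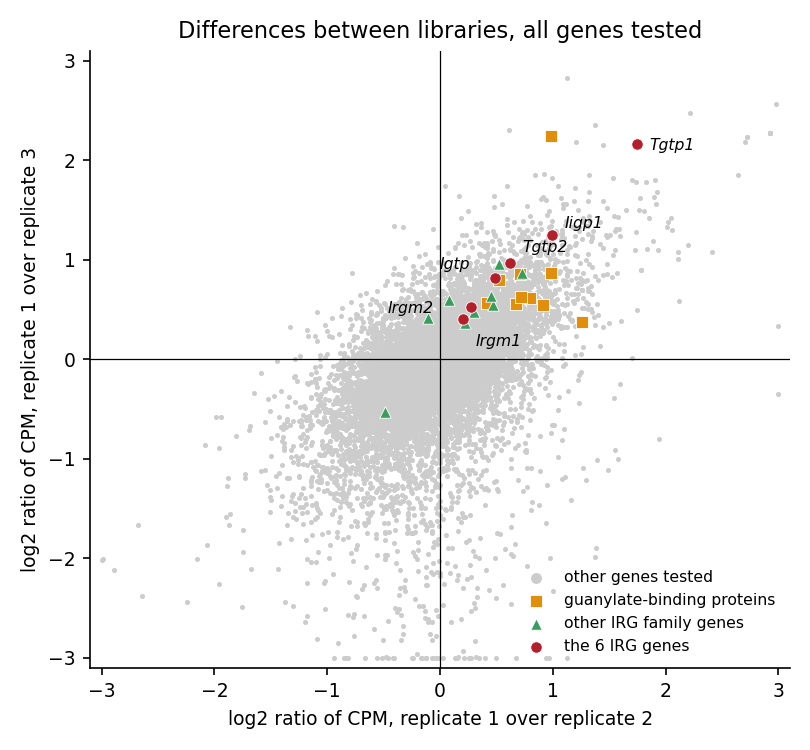
Log2 ratio of TMM-normalized CPM (0.1 added) of replicate 1 over replicate 2 (horizontal) and over replicate 3 (vertical) for the 14839 genes tested, with values beyond 3 drawn at the edge; both axes share replicate 1. The 6 IRG genes lie in the upper right, from Irgm1 (0.21 and 0.40) to Tgtp1 (1.74 and 2.17). On the horizontal axis the guanylate-binding protein genes span 0.42 to 1.26, with Irgm1 and Irgm2 below that range and Tgtp1 above it.

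Of 11250 other protein-coding genes, 15 lay within 0.1 log2 units (Euclidean distance of centred log2 CPM over the 3 libraries) of the mean profile of the 6 genes, which was 0.58, -0.14 and -0.44 in replicates 1, 2 and 3. The 5 nearest were H60b, a ligand of the NKG2D receptor (distance 0.03), C130026I21Rik (0.04), Nt5c3, a nucleotidase (0.04), Ifit3, an antiviral interferon-induced protein (0.05), and Phf11d (0.05). H60b had a low level, 1.76 ± 0.56 TPM, while the others had means from 60.3 TPM (C130026I21Rik) to 354 TPM (Ifit3). Tgtp2, at 0.07, was the nearest of the 6 genes to their own mean, and Tgtp1, at 0.89, the farthest. With 3 points per gene, this likeness is a description only.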

How the data were processed

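The members and gene lists were chosen with earlier results of these data known. Gene tables and alignment-based transcript tables were made by the authors from alignments to the mm10 transcriptome (GENCODE M21), and read-based tables from reads and an index, per the READMEs deposited beside them. Aligner, counter, their versions and the use of strand are not stated in what was used here. Expected counts (estimated reads), TPM over all rows and a posterior SD of the count, treated as a score, were deposited by the authors without further normalization.

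Rows naming no gene held 1.31%, 0.48% and 0.24% of expected counts in replicates 1, 2 and 3 and were left out. Means, SDs and shares are over 3 libraries of 1 group. Spread was tested on rounded expected counts with edgeR 4.0.16, run in R 4.3.3 (filterByExpr, TMM, intercept only, robust prior, with the largest prior degrees of freedom used for every gene); all 6 genes passed the filter. The script was tested on simulated data. Ratios are of TMM CPM with 0.1 added. Neighbouring levels were compared by exact sign-flip tests. Counting intervals take reads as independent molecules, which reads without molecular identifiers are not. Named from other lists are the 3 highest and the lowest gene, and isoforms with at least 5% of a gene's counts. Alternatives were read-based tables, rescaled TPM, RLE size factors, 1 CPM added, other filters on low counts, share of TPM, and each replicate left out. The remaining work was done in Python 3.11.15 with pandas 2.3.3, scipy 1.17.1, numpy 2.4.6, Biopython 1.88 and matplotlib 3.10.9. Protein sequences were not used here, and 1 gene of the interferon signalling list is not reported here.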

Additional observations from a re-analysis of the deposited data

How the results depend on the processing

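No paired analysis was possible because there is 1 group. The number of the 6 genes at 100 TPM or more was 1 to 2 with each replicate left out. The number of genes passing the spread test, 24 in the analysis reported, was 677 with no filter on low counts, 180 with a mean of at least 50 reads, 0 to 78 with each replicate left out, and 0 with the edgeR prior estimated without robust weights, an alternative chosen after seeing the data, where 747 genes had an unadjusted p under 0.05. The count of 0 came without replicate 2, where 727 genes had an unadjusted p under 0.05. The count therefore depends on these settings, and the cause was not tested. Across alternatives, the median log2 ratio of the 6 genes ran from 0.55 to 0.59 for replicate 1 over replicate 2 and from 0.88 to 0.91 for replicate 1 over replicate 3. The Tgtp1 share, 7.28 ± 3.41% over libraries, ran from 5.32% to 8.33%. Of the isoform shares, 9 of 30 alternative values moved by more than 1 SD, all with the alignment-based tables or as shares of TPM. With 3 libraries, precision rests on their number, and the split of Tgtp1 from Tgtp2 on the few bases that differ.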
